A study of Mus musculus with 7 samples.

Results

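The genes described here encode the machinery that carries a cell through mitosis: the kinases and cyclins that start it, the spindle checkpoint, the kinetochore, the spindle motors, and the proteins of cytokinesis and chromosome condensation. They were followed in OT-I cells, which are mouse CD8 T cells carrying a transgenic receptor for an ovalbumin peptide. The list held 58 genes of 18194 named on the array, chosen by name and function with earlier results of these data known. For each gene the probe set with a single gene symbol and the highest mean over the 7 arrays was used. Of the 58 genes, 57 had such a probe set and 55 passed the filter on low values, which 8203 genes passed in all. Ccnb1, the best known B-type cyclin, had no such probe set, so its expression was not analysed here. Sgol1 is listed on the array as Sgo1.

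In all groups the donor cells were CD44lo, Ly5.1 OT-I cells on a C57BL/6 background that had been labelled with CFSE, a dye diluted at each division, and injected into a host. RIP-OVAhi hosts carry an ovalbumin transgene driven by the rat insulin promoter, a model of deletional tolerance, and gave 2 arrays of RNA pooled from 20 mice each. OCS/LPS hosts, a model of immunity, received splenocytes coated with ovalbumin and lipopolysaccharide, and gave 2 arrays of 10 mice each. Rag-/- hosts, which make no T or B cells of their own, gave 1 array of 10 mice. Antigen-free B6 hosts gave the naive group, with 2 arrays of 10 mice each. Donor cells that had divided at least 2 times were sorted from the first 3 kinds of host, and undivided cells from the B6 hosts. Cells were taken 60 h after transfer, except in Rag hosts, where they were taken after 5 days, so time and host cannot be told apart for that group. RIP-OVAhi cells came from sacral and pancreatic lymph nodes and the other groups from spleen, so tissue and host cannot be told apart for RIP-OVAhi.

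In a dividing cell most of these genes are silent in quiescence, are transcribed late in the cycle, from S phase into G2 and mitosis, and are switched off again as the cell leaves it. The DREAM complex represses them in resting cells, and B-MYB, FOXM1 and the NF-Y factor activate them, through the cell cycle genes homology region (CHR) and CCAAT boxes of their promoters. T cells are a classical case of this switch, since a naive T cell rests in G0 until antigen drives a series of rapid divisions.

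Those promoter elements could be read for 47 of the 58 genes, in RefSeq windows of GRCm38.p6 that run from 250 bases before to 50 bases after each transcription start. The letters TTTGAA, a core form of the CHR, were searched on both strands and stood in the windows of 32 of the 47 genes (68.1%), against 20.2% of 27025 genes with a window. CCAAT, also searched on both strands, stood in 35 of the 47 (74.5%), against 41.1% of all genes. Both motifs stood in 28 of the 47 (59.6%), against 7.97% of all genes, and TTTGAA with at least 2 CCAAT letters in 18 (38.3%), against 2.42%. These motifs can share at most a base at their ends. The TTTGAA match lay within 40 bases of the start in 30 of the 51 member windows, against 4.16% of 32851 windows of all genes. These are matches of letters only, and binding was not measured. The stretches from 120 bases before to 30 bases after the start are given for 8 members, 5′ to 3′ on the gene's strand, with TTTGAA (or TTCAAA) and CCAAT (or ATTGG) in capitals.
The first 6 hold both motifs and are chosen examples of some expression patterns met in the arrays. Cdk1, Ccnb2, Cdc20 and Ube2c followed the common pattern, and Ttk stayed near background in Rag cells. Kif23, on the probe set used, was already well above background in naive cells. Genes level over the groups, or about as high in Rag as in RIP-OVAhi cells, are not among these 6.
Cdk1, chr10:69352883-69353032, minus strand: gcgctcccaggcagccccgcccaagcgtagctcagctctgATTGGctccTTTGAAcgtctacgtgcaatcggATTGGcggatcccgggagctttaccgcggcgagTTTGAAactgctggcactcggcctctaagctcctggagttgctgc
Ccnb2, chr9:70421525-70421674, minus strand: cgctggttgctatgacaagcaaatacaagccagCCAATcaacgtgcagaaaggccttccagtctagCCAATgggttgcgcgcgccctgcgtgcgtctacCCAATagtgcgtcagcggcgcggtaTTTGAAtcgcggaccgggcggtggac
Cdc20, chr4:118437314-118437463, minus strand: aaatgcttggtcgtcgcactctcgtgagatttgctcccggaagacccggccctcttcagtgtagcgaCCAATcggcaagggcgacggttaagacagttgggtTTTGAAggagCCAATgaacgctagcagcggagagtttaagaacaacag
Ube2c, chr2:164769809-164769958, plus strand: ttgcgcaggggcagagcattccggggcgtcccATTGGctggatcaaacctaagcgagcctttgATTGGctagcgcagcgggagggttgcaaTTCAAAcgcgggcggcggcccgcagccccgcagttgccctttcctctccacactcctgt
Ttk, chr9:83834569-83834718, plus strand: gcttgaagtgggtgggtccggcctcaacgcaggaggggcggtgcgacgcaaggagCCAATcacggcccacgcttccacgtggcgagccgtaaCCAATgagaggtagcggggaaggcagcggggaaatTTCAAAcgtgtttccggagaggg
Kif23, chr9:61946770-61946919, minus strand: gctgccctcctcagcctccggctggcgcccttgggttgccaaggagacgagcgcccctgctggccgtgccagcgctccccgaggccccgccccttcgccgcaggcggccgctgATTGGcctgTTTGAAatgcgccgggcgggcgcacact
Nek2, which was called lower in RIP-OVAhi than in OCS/LPS cells, had a pair of CCAAT boxes and no TTTGAA match in its stretch. Pttg1, whose probe set used here was nearly level over the groups, had neither. The whole windows of Birc5, Mad2l1, Ncaph, Nuf2, Nusap1 and Plk4, and of the untested Mybl2, also held neither motif. The tested genes among these were all called higher in RIP-OVAhi than in naive cells. Their differences were 5.98, 2.64, 4.95, 6.39, 6.66 and 2.34 in that order, so lack of both motifs was not limited to level genes.
Nek2, chr1:191821353-191821502, plus strand: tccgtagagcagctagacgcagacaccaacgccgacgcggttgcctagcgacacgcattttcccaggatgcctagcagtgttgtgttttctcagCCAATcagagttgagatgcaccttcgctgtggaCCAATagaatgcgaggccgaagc
Pttg1, chr11:43425952-43426101, minus strand: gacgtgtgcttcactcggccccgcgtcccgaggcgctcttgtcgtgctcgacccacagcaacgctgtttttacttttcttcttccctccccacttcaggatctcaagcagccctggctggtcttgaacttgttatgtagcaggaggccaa

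The arrays give log2 values made with GCRMA, which sets every array to nearly the same distribution, so a shift shared by most genes cannot be seen. Arrays have no read depth, and the number of arrays limits the precision. Values under log2 5 are called near background. The array medians over all probe sets were 2.97 to 3.08. All 7 listed T cell markers on the array were well above background in every group, with a summed level of log2 15.1 to 15.3. Sex-linked genes separated the arrays numbered 1 from those numbered 2: Xist read 2.67 to 2.74 on the arrays numbered 1 and at least 12.7 on those numbered 2. The differences, their standard errors (SE) and adjusted p-values below come from 1 limma model over all 7 arrays, and genes whose adjusted p fell under 0.05 are spoken of as called. Whether the pools within a group are separate experiments is not given by the labels, and p-values therefore cover just the spread between these arrays. The Rag group has 1 array and was assumed to vary like the others.

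Nearly all of these mitotic genes were higher in the divided cells than in naive cells, by much in RIP-OVAhi and OCS/LPS hosts and by less in Rag hosts. The median of the 55 tested members was log2 9.46 and 9.70 on the RIP-OVAhi arrays, 10.08 and 10.38 on the OCS/LPS arrays, 6.89 on the Rag array, and 3.81 and 4.31 on the naive arrays. No tested member was under log2 5 in RIP-OVAhi or OCS/LPS cells, 6 were in Rag cells, and 38 and 33 were on the naive arrays. In these bulk samples, fewer cells in mitosis and less RNA per cell cannot be told apart.

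**Figure D1:**
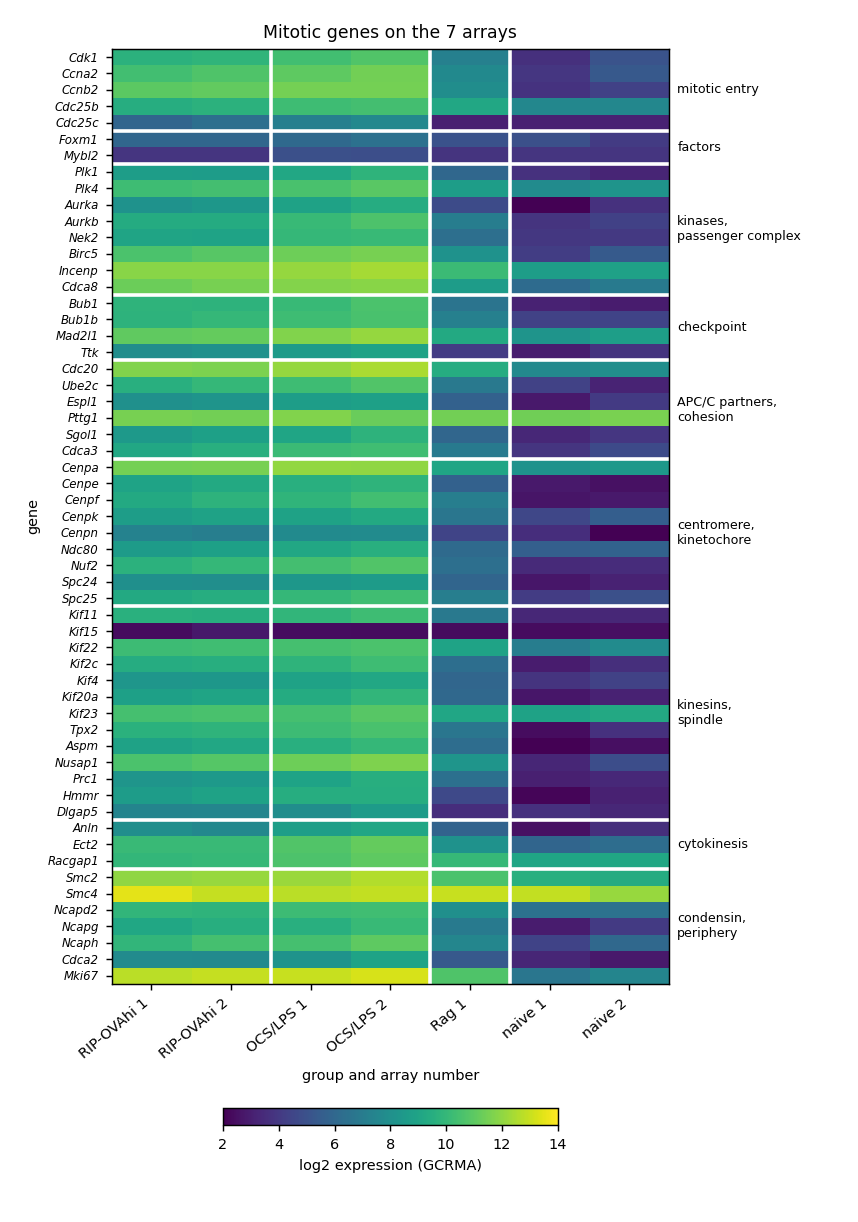
Log2 expression (GCRMA, colour scale) of the 57 mitotic genes with a probe set (rows, by role) on the 7 arrays (columns, by group and array number). The medians of the tested members were 9.46 and 9.70 for RIP-OVAhi cells, 10.08 and 10.38 for OCS/LPS cells, 6.89 for Rag cells, and 3.81 and 4.31 for naive cells. Pttg1 and Smc4 are bright in every column.

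Between RIP-OVAhi and naive cells, 53 of the 55 tested members were called higher, where 18.1% of all tested genes were called higher and 11.6% lower. Their differences had a median of 4.95 on the log2 scale and ran from 0.00 to 6.99, against a median of 0.06 over all tested genes. Between OCS/LPS and naive cells 53 members were again called higher, where 20.5% of all tested genes were called higher and 12.3% lower. The median there was 5.61, with a range of 0.01 to 7.53, against 0.08 over all tested genes. All 55 estimates were above 0 in both comparisons, which share the naive arrays. Both RIP-OVAhi arrays lay above both naive arrays for 54 members, where 37% of all tested genes did so and 29% lay below. Both OCS/LPS arrays lay above both naive arrays for 53 members, where 39.4% of all tested genes did so and 28.6% lay below. The 2 members not called were the same genes both times, Pttg1 and Smc4. Since many members passed the filter only through the divided cells, those could hardly fail to differ from naive cells. The calls against naive cells by role below share this limit for such members and are a description there. Of the 17 members at log2 5 or more on both naive arrays, 15 were called higher in RIP-OVAhi cells, with a median of 2.84. The same number was called higher in OCS/LPS cells, with a median of 3.44. Folds against naive or Rag values near background are folds on the GCRMA scale.

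The genes of mitotic entry showed the common pattern. Cdk1, the kinase that drives entry into mitosis, read log2 9.69 and 9.83 in RIP-OVAhi cells, 10.35 and 10.74 in OCS/LPS cells, 7.25 in Rag cells, and 3.65 and 5.06 in naive cells. The 4 groups did not overlap, and the naive arrays lay 1 on each side of the background level. Cdk1 was 42.3-fold higher in RIP-OVAhi than in naive cells (log2 difference 5.40, SE 0.44, adjusted p = 0.000628) and 72.7-fold higher in OCS/LPS than in naive cells (6.18, SE 0.44, adjusted p = 0.000322). In Rag cells it lay 2.89 above naive cells (SE 0.54), which missed the threshold (adjusted p = 0.0567). Ccnb2, a B-type cyclin and partner of CDK1, read near background on both naive arrays (3.76 and 4.31) and differed from naive cells by 6.99 in RIP-OVAhi cells. It was also called higher in Rag than in naive cells, by 3.83 (SE 0.24, adjusted p = 0.00202). Ccna2, which acts from S phase to early mitosis, differed from naive cells by 5.91 in RIP-OVAhi and 6.62 in OCS/LPS cells.

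The CDC25 phosphatases, which remove the inhibitory phosphates from CDK1, differed in pattern from each other. Cdc25b read 9.46 and 9.70 in RIP-OVAhi cells, 10.26 and 10.41 in OCS/LPS cells, 9.20 in Rag cells, and 7.56 and 7.55 in naive cells. It was well above background in all groups, and Rag cells came close to RIP-OVAhi cells (RIP-OVAhi minus Rag 0.38, SE 0.17, adjusted p = 0.185). Cdc25c read 5.92 and 6.40 in RIP-OVAhi cells, 7.18 and 7.58 in OCS/LPS cells, 3.04 in Rag cells, and 3.10 and 3.16 in naive cells. It was thus above background only in the cells divided in RIP-OVAhi and OCS/LPS hosts, with no overlap between these. Cdc25c was called higher than in naive cells in RIP-OVAhi cells (3.03, SE 0.21, adjusted p = 0.000364) and in OCS/LPS cells (4.25, SE 0.21, adjusted p = 8.12e-05).

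The transcription factors lay at or not far above the background level on these probe sets. Foxm1 read 5.98 and 5.98 in RIP-OVAhi cells, 6.09 and 6.47 in OCS/LPS cells, 5.04 in Rag cells, and 4.94 and 4.10 in naive cells. It was called higher in RIP-OVAhi than in naive cells (1.46, SE 0.29, adjusted p = 0.0149) and in OCS/LPS than in naive cells (1.76, SE 0.29, adjusted p = 0.00733). These calls were lost without either RIP-OVAhi array (adjusted p = 0.101 and 0.105), without the second OCS/LPS array (adjusted p = 0.069) and with no filter on low values (adjusted p = 0.0871 and 0.0544). Another Foxm1 probe set that passed the filter read 5.84 and 5.98 in RIP-OVAhi cells, 6.28 and 6.96 in OCS/LPS cells, 3.79 in Rag cells, and 3.43 and 2.74 in naive cells. It gave wider differences, 2.82 in RIP-OVAhi minus naive, 3.53 in OCS/LPS minus naive and 2.12 in RIP-OVAhi minus Rag. Mybl2, which encodes B-MYB, read 3.85 and 3.85 in RIP-OVAhi cells, 4.91 and 4.88 in OCS/LPS cells, 3.81 in Rag cells, and 3.85 and 3.84 in naive cells. None of its 7 values reached the background level, so no test was made.

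All 8 tested kinases and members of the chromosomal passenger complex were called higher in both RIP-OVAhi and OCS/LPS cells than in naive cells, and 6 of the 8 in Rag cells. Plk1, the Polo kinase of centrosome maturation and mitotic exit, read 8.68 and 8.65 in RIP-OVAhi cells, 9.18 and 9.81 in OCS/LPS cells, 6.01 in Rag cells, and 3.73 and 3.26 in naive cells. Its groups did not overlap, and it was 36.0-fold higher in RIP-OVAhi than in naive cells (5.17, SE 0.25, adjusted p = 9.73e-05). Aurkb, the catalytic subunit of the passenger complex, which corrects faulty kinetochore attachments, read 9.37 and 9.37 in RIP-OVAhi cells, 10.08 and 10.65 in OCS/LPS cells, 7.10 in Rag cells, and 3.81 and 4.30 in naive cells. It was 39.8-fold higher in RIP-OVAhi than in naive cells (5.31, SE 0.25, adjusted p = 8.52e-05) and 8.26-fold higher in Rag than in naive cells (3.05, SE 0.30, adjusted p = 0.00742). Incenp, the scaffold of the same complex, read 11.86 and 11.87 in RIP-OVAhi cells, 12.08 and 12.38 in OCS/LPS cells, 10.19 in Rag cells, and 8.67 and 8.85 in naive cells. Incenp was thus well above background in naive cells and still 8.62-fold higher in RIP-OVAhi cells (3.11, SE 0.15, adjusted p = 9.73e-05). The other subunits, Birc5 (survivin) and Cdca8 (borealin), differed from naive cells by 5.98 and 4.89 in RIP-OVAhi cells.

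The 4 checkpoint genes hold anaphase back until all chromosomes are attached. They were all called higher in RIP-OVAhi and OCS/LPS cells than in naive cells, against 18.1% and 20.5% of all tested genes. Bub1, a kinase of the checkpoint, read 9.80 and 9.78 in RIP-OVAhi cells, 10.07 and 10.61 in OCS/LPS cells, 6.64 in Rag cells, and 3.17 and 2.90 in naive cells. The groups did not overlap, and Bub1 was 108-fold higher in RIP-OVAhi than in naive cells (6.75, SE 0.21, adjusted p = 2.76e-05). In Rag cells it was 12.1-fold higher than in naive cells (adjusted p = 0.00255). Mad2l1, which encodes the MAD2 inhibitor of CDC20, read 11.08 and 11.15 in RIP-OVAhi cells, 11.72 and 12.10 in OCS/LPS cells, 9.29 in Rag cells, and 8.21 and 8.73 in naive cells. Its naive level was well above background, and the Rag difference from naive cells, 0.81 (SE 0.27), was not called (adjusted p = 0.199).

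Among the partners of the anaphase-promoting complex (APC/C), Cdc20, its mitotic activator, read 11.71 and 11.63 in RIP-OVAhi cells, 12.12 and 12.50 in OCS/LPS cells, 9.42 in Rag cells, and 7.63 and 7.93 in naive cells. It was 14.9-fold higher in RIP-OVAhi than in naive cells (3.89, SE 0.18, adjusted p = 8.52e-05), with no overlap between groups. Ube2c, the ubiquitin-conjugating enzyme of the APC/C, and Espl1, the separase that cleaves cohesin, differed from naive cells by 6.03 and 4.67 in RIP-OVAhi cells. Pttg1 encodes securin, the inhibitor of separase. It read 11.52 and 11.46 in RIP-OVAhi cells, 11.72 and 11.28 in OCS/LPS cells, 11.43 in Rag cells, and 11.41 and 11.57 in naive cells. The RIP-OVAhi, OCS/LPS and naive arrays overlapped, and the Rag array lay within the OCS/LPS and naive ranges and just under both RIP-OVAhi arrays. The RIP-OVAhi minus naive difference was 0.00 (SE 0.18, adjusted p = 0.995). Both other Pttg1 probe sets passed the filter too and differed between RIP-OVAhi and naive cells by 0.24 and -0.18. In Rag cells these 2 probe sets were less level and went opposite ways, with Rag minus naive differences of 1.10 and -0.64 and RIP-OVAhi minus Rag differences of -0.86 and 0.46. Whether these probe sets also read related sequences was not tested.

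All 9 centromere and kinetochore genes were called higher in RIP-OVAhi and OCS/LPS cells than in naive cells, against 18.1% and 20.5% of all tested genes. In Rag cells 5 of the 9 were called higher than in naive cells, against 2.15% of all tested genes. Cenpa, the histone variant that marks the centromere, read 11.49 and 11.53 in RIP-OVAhi cells, 12.04 and 12.01 in OCS/LPS cells, 9.04 in Rag cells, and 8.10 and 8.40 in naive cells. It was 9.58-fold higher in RIP-OVAhi than in naive cells (3.26, SE 0.14, adjusted p = 7.16e-05), while the Rag difference of 0.79 (SE 0.17) was not called (adjusted p = 0.0843). The subunits of the NDC80 complex, which binds microtubules, differed from naive cells by 3.03 (Ndc80), 6.39 (Nuf2), 5.03 (Spc24) and 4.84 (Spc25) in RIP-OVAhi cells. In Rag cells Ndc80 differed by 0.45 (SE 0.21) and was the only subunit of the 4 not called there (adjusted p = 0.335), while Nuf2 differed by 2.90 (SE 0.21, adjusted p = 0.00255).

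All 12 tested kinesins and spindle proteins were called higher in RIP-OVAhi and OCS/LPS cells than in naive cells, against 18.1% and 20.5% of all tested genes. Apart from Kif22 and Kif23, these genes were under log2 5 on both naive arrays and passed the filter only through the divided cells. The differences of the 12 genes had a median of 6.04 in RIP-OVAhi and 6.73 in OCS/LPS cells. Aspm, a spindle pole protein, differed by 6.77 and 7.53 from naive cells in RIP-OVAhi and OCS/LPS cells, with both naive arrays near background (2.04 and 2.49). Kif23, the kinesin of the central spindle, read 10.46 and 10.54 in RIP-OVAhi cells, 10.44 and 10.89 in OCS/LPS cells, 9.08 in Rag cells, and 8.93 and 9.25 in naive cells. RIP-OVAhi and OCS/LPS arrays overlapped, and so did Rag and naive arrays. Kif23 was 2.66-fold higher in RIP-OVAhi than in naive cells (1.41, SE 0.20, adjusted p = 0.00453) and differed by -0.01 (SE 0.24, adjusted p = 0.99) between Rag and naive cells. Without the second RIP-OVAhi array the RIP-OVAhi call was lost (adjusted p = 0.0534). Kif15 read 2.37 and 2.75 in RIP-OVAhi cells, 2.39 and 2.37 in OCS/LPS cells, 2.36 in Rag cells, and 2.39 and 2.50 in naive cells, near background throughout, and was not tested.

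All 3 cytokinesis genes were called higher in RIP-OVAhi and OCS/LPS cells than in naive cells, against 18.1% and 20.5% of all tested genes. Racgap1, which with Kif23 forms centralspindlin, read 9.96 and 10.02 in RIP-OVAhi cells, 10.63 and 11.00 in OCS/LPS cells, 10.02 in Rag cells, and 9.08 and 9.15 in naive cells. The Rag array was as high as the RIP-OVAhi arrays, and OCS/LPS cells stood above both. Racgap1 was 1.84-fold higher in RIP-OVAhi than in naive cells (0.88, SE 0.16, adjusted p = 0.0105), a call that was lost without either RIP-OVAhi array (adjusted p = 0.0739 and 0.0878). Another Racgap1 probe set gave a RIP-OVAhi minus naive difference of 1.70 and a RIP-OVAhi minus Rag difference of 0.80, so its Rag array did not match RIP-OVAhi. Ect2, the exchange factor that centralspindlin recruits, and Anln, the actin-binding anillin, differed from naive cells by 4.01 and 4.70 in RIP-OVAhi cells.

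In the condensin and chromosome periphery group, 6 of 7 members were called higher in both RIP-OVAhi and OCS/LPS cells than in naive cells. Of all tested genes, 18.1% and 20.5% were called higher in these comparisons. Smc4, an ATPase of condensin, was the exception among the 7. It read 13.51 and 12.97 in RIP-OVAhi cells, 12.74 and 12.89 in OCS/LPS cells, 12.98 in Rag cells, and 12.89 and 12.14 in naive cells. The naive arrays were 0.74 apart, and the RIP-OVAhi minus naive difference of 0.72 (SE 0.29) was not called (adjusted p = 0.116). Its partner Smc2 differed from naive cells by 2.62 in RIP-OVAhi cells and by 2.95 in OCS/LPS cells. Mki67, which encodes the Ki-67 protein that coats mitotic chromosomes, differed by 5.77 in RIP-OVAhi cells, by 6.05 in OCS/LPS cells and by 3.63 in Rag cells, and was called in all 3 comparisons.

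**Figure D2:**
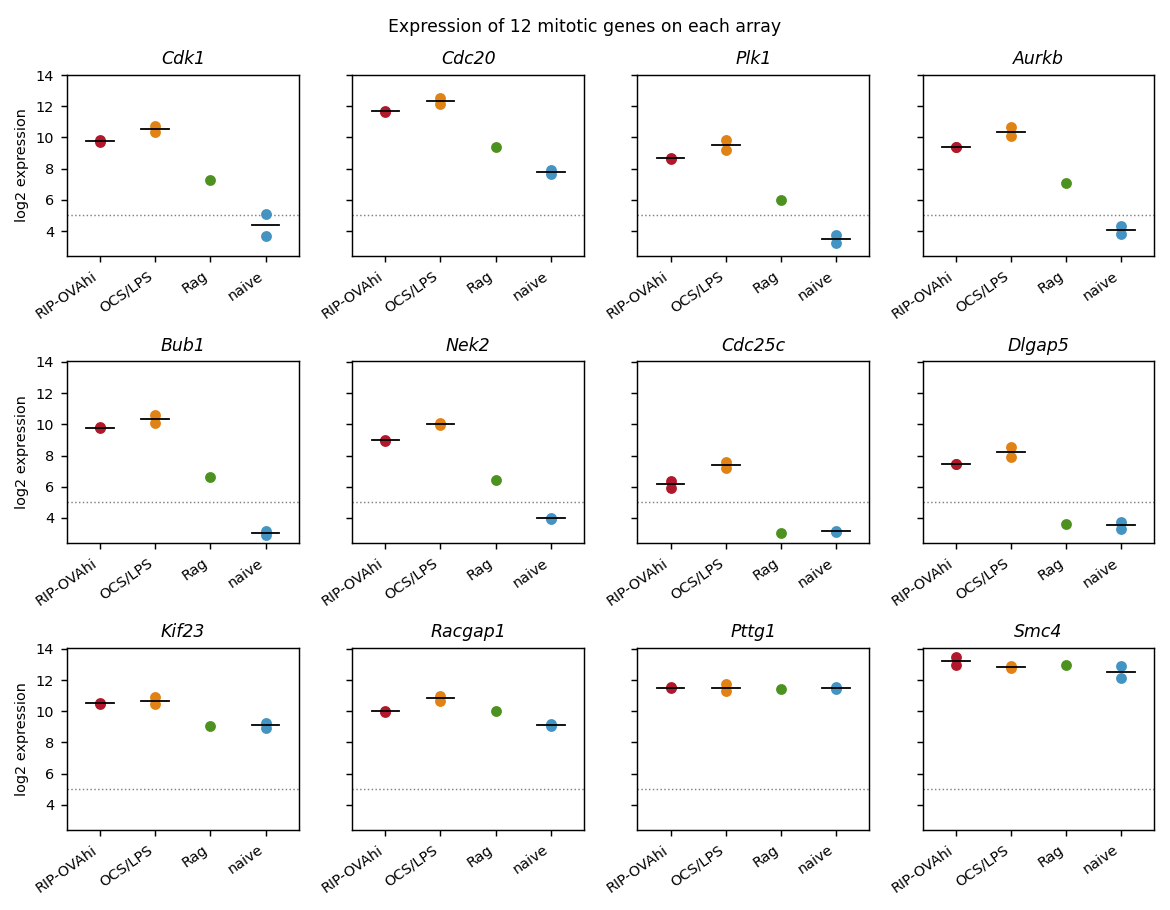
Log2 expression (GCRMA, y axis) of 12 mitotic genes on each array (points) by group (x axis), with the mean of each group of 2 arrays as a line and log2 5 dotted. Cdk1, Cdc20, Plk1, Aurkb, Bub1 and Nek2 fall in the order OCS/LPS, RIP-OVAhi, Rag, naive from high to low, while Pttg1 is nearly level on the probe set used and Cdc25c and Dlgap5 are near background in Rag cells.

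RIP-OVAhi cells read slightly lower than OCS/LPS cells for almost all of these genes, but few single differences passed the test. The 55 differences had a median of -0.66 on the log2 scale and ran from -1.22 to 0.42, against a median of -0.05 over all tested genes. The estimate was below 0 for 54 of the 55 members, Smc4 being the exception. Both RIP-OVAhi arrays lay below both OCS/LPS arrays for 52 members (34% of all tested genes), and above them for Smc4 alone (23.5% of all tested genes). Only 2 members, Nek2 and Cdc25c, were called lower and none higher, where 1.3% of all tested genes were called lower and 1.61% higher. At an unadjusted p under 0.05, 30 members (54.5%) were lower and 0 higher, against 9.3% of all tested genes lower and 7.24% higher.

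Nek2, a kinase of centrosome separation, read 9.02 and 8.95 in RIP-OVAhi cells, 9.98 and 10.08 in OCS/LPS cells, 6.40 in Rag cells, and 3.95 and 4.01 in naive cells. The arrays of each group lay close together and far from those of the other groups. Nek2 was 2.06-fold lower in RIP-OVAhi than in OCS/LPS cells (-1.04, SE 0.12, adjusted p = 0.0129). Cdc25c, whose array values are given above, was 2.34-fold lower in RIP-OVAhi than in OCS/LPS cells (-1.22, SE 0.21, adjusted p = 0.0462). Anln, chosen after its value was seen, had an estimate of like size (-1.16, SE 0.36) that was not called (adjusted p = 0.194). Without any one of the 4 arrays compared, neither Nek2 nor Cdc25c was called. Without either naive array, or with only the arrays of the 2 groups in the fit, 5 members were called lower, and Cdc25c was not among them (adjusted p = 0.0594 each time). It was also not called with the mean of its probe sets (adjusted p = 0.0539), with a trended and robust prior (adjusted p = 0.0558) or with no filter on low values (adjusted p = 0.185). Nek2 was called in all of these fits, but with the mean of its probe sets its difference shrank to -0.62.

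The median also differed between the arrays of a group. On the second OCS/LPS array 52 of the 55 members were higher than on the first, by a median of 0.37, where 57.8% of all tested genes were higher. On the second RIP-OVAhi array 42 members were higher, by a median of 0.15, where 53.2% of all tested genes were. On the second naive array 44 members were higher, by a median of 0.39, and 13 members were more than 1 apart between the naive arrays. The median over the members was lower in RIP-OVAhi than in OCS/LPS cells at both array numbers, by the values given above, and the higher RIP-OVAhi array (9.70) lay below the lower OCS/LPS array (10.08). Without each array of these groups in turn the median difference lay between -0.83 and -0.48.

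**Figure D3:**
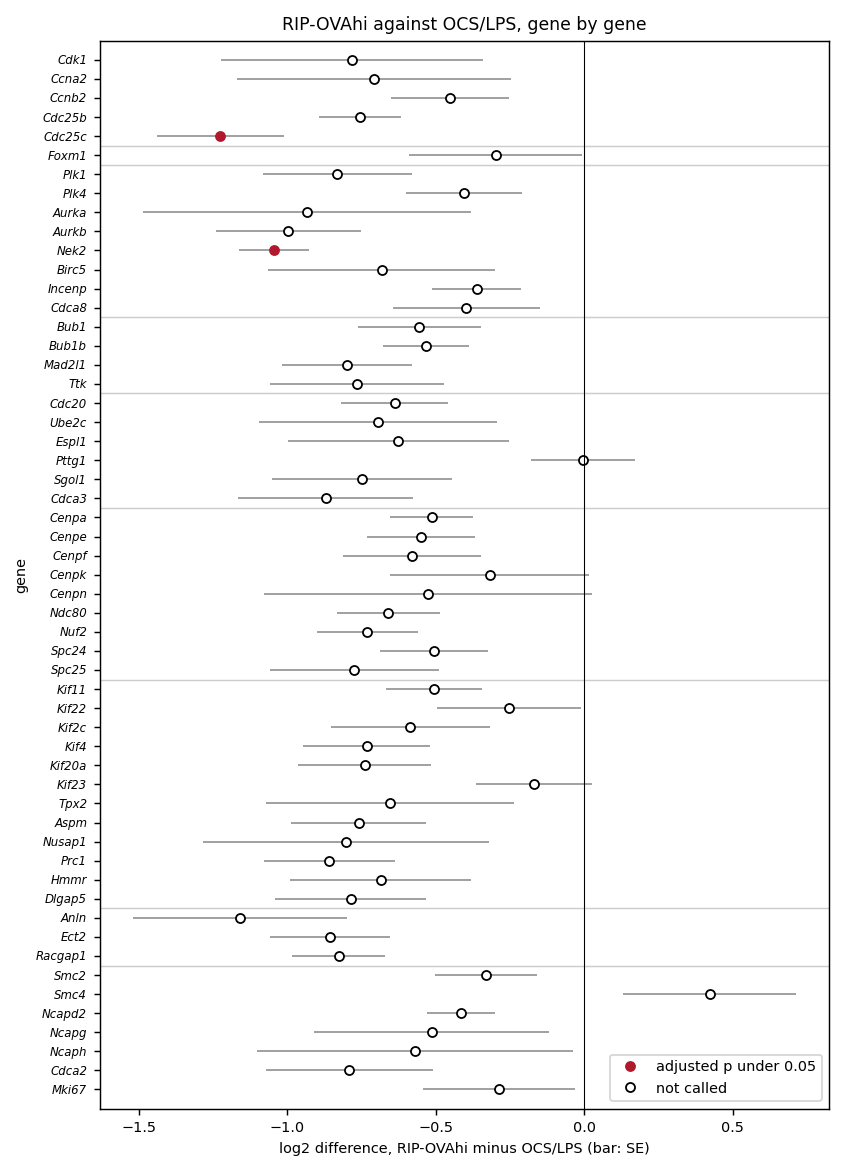
RIP-OVAhi minus OCS/LPS difference on the log2 scale (x axis, point, with its SE as a bar) for each of the 55 tested members (y axis, by role). Nek2 and Cdc25c, filled, were called lower in RIP-OVAhi cells. Smc4 is the only point to the right of 0, and the median of all 55 points is -0.66.

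The summed levels of marker genes of other cell types were also lower in RIP-OVAhi than in OCS/LPS cells. Summed over the listed MHC class II genes, the log2 level was 5.73 to 5.92 in RIP-OVAhi, 7.69 to 8.43 in OCS/LPS, 9.17 in Rag and 7.70 to 7.72 in naive cells. The summed level of the 11 myeloid markers was 6.58 to 6.77 in RIP-OVAhi, 8.23 to 8.89 in OCS/LPS, 10.1 in Rag and 8.51 to 9.15 in naive cells. The B and plasma cell markers (7 of 8 on the array) summed to 8.10 to 8.60 in RIP-OVAhi, 9.25 to 9.70 in OCS/LPS, 7.25 in Rag and 8.32 to 8.99 in naive cells. The erythroid and platelet markers (9 of 12 on the array) summed to 7.37 to 7.79 in RIP-OVAhi, 8.15 to 8.49 in OCS/LPS, 9.74 in Rag and 7.44 to 7.66 in naive cells. In RIP-OVAhi cells all 11 myeloid and all 5 MHC class II genes were under log2 5. Hba-a1, Epor, Gata1, Klf1, Pf4 and Itga2b were under log2 5 in every group. Only 2 of the 9 erythroid and platelet genes reached log2 5 in RIP-OVAhi, OCS/LPS and naive cells, and 3 in Rag cells. Of the 7 B and plasma cell genes, 1 did so in RIP-OVAhi and in Rag cells and 3 in OCS/LPS and in naive cells. These 2 sums thus rest on few genes. Whether the marker transcripts came from host cells, and their part in the mitotic differences, was not tested.

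In Rag cells, sorted by the same rule of at least 2 divisions, many of the mitotic genes were higher than in naive cells, by less than in RIP-OVAhi cells. Of the 55 tested members, 33 were called higher than in naive cells, where 2.15% of all tested genes were called higher and 0.585% lower. The differences had a median of 2.31 on the log2 scale, against 0.04 over all tested genes, and 52 of 55 were above 0. Of the 17 members at log2 5 or more on both naive arrays, 7 were called higher, with a median difference of 1.13. Among the kinesins and spindle proteins 8 of 12 were called, among the passenger complex and kinases 6 of 8, and among the checkpoint genes 2 of 4. The count rests on the arrays of other groups through the shared spread: it was 14 without either RIP-OVAhi array and 20 without either OCS/LPS array.

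Set directly against Rag cells, RIP-OVAhi cells were higher in 50 of the 55 members, where 9.84% of all tested genes were called higher and 6.9% lower, with a median of 2.47 against 0.02. OCS/LPS cells were higher than Rag cells in 52 members, where 11.2% of all tested genes were called higher and 6.9% lower, with a median of 3.21 against 0.06. Both comparisons rest on the single Rag array, whose host, time and tissue differ from those of RIP-OVAhi cells together. That array is numbered 1, with Xist at 2.67, while each other group, naive cells included, holds arrays of both numbers. Most members were higher on the arrays numbered 2, as given above. The RIP-OVAhi count was 24 without either RIP-OVAhi array, and the OCS/LPS count was 34 without the second OCS/LPS array. The 5 members not called higher in RIP-OVAhi than in Rag cells were Cdc25b, Foxm1, Pttg1, Racgap1 and Smc4.

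The share of the RIP-OVAhi rise that was reached in Rag cells varied between the genes. Over the 53 members called in RIP-OVAhi against naive cells, the Rag difference from naive was a median of 49.3% of the RIP-OVAhi difference on the log2 scale, with a range from -2.82% to 104%. It was under 50% for 28 members, under 25% for 6 and highest for Cdc25b and Racgap1. Both differences are taken from the same naive arrays, so the shares are a description. For members near background in naive cells, both differences also start from that background. A share on the log2 scale is not a share of the fold. For Bub1 it was 53.3%, with 12.1-fold in Rag and 108-fold in RIP-OVAhi cells.

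The 6 members near background in Rag cells, Cdc25c, Aurka, Ttk, Cenpn, Hmmr and Dlgap5, were picked for their low Rag level. Their array values are therefore given with no single test against Rag cells, though the counts of called members above include them. Cenpn read 7.33 and 7.12 in RIP-OVAhi cells, 7.72 and 7.78 in OCS/LPS cells, 4.47 in Rag cells, and 3.55 and 1.70 in naive cells. Dlgap5, a spindle protein that stabilises kinetochore fibres, read 7.42 and 7.48 in RIP-OVAhi cells, 7.90 and 8.58 in OCS/LPS cells, 3.59 in Rag cells, and 3.71 and 3.31 in naive cells. The Rag value lay between the naive arrays. Ttk, the checkpoint kinase MPS1, read 7.90 and 8.09 in RIP-OVAhi cells, 8.60 and 8.92 in OCS/LPS cells, 4.12 in Rag cells, and 2.95 and 3.80 in naive cells. Hmmr, a microtubule-binding protein of the spindle, read 8.63 and 8.92 in RIP-OVAhi cells, 9.46 and 9.46 in OCS/LPS cells, 4.63 in Rag cells, and 2.19 and 3.12 in naive cells. For Ttk and Hmmr the Rag array lay above the naive arrays and far below the RIP-OVAhi and OCS/LPS arrays. Aurka, the Aurora kinase of the spindle poles, read 8.12 and 8.36 in RIP-OVAhi cells, 8.94 and 9.41 in OCS/LPS cells, 4.73 in Rag cells, and 1.92 and 3.71 in naive cells. Its Rag array lay above both naive arrays but under the background level.

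**Figure D4:**
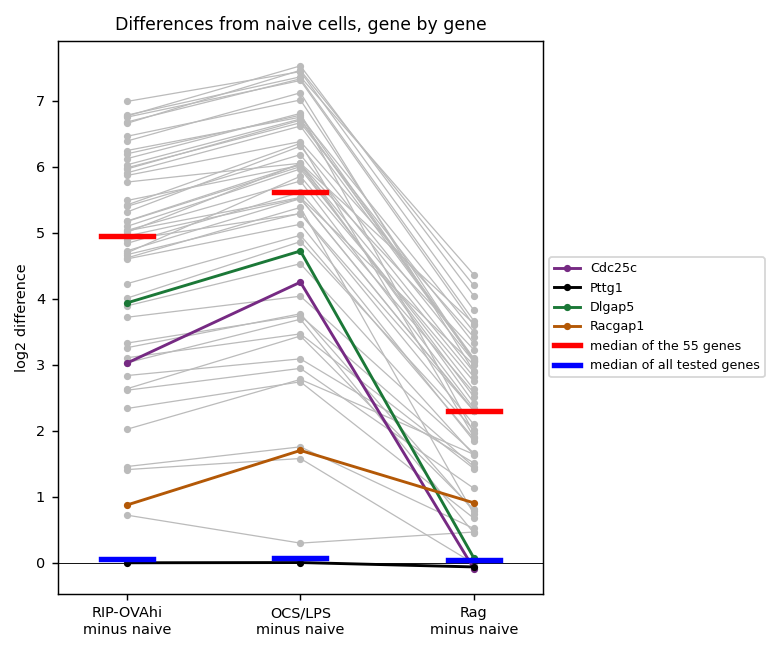
Differences from naive cells on the log2 scale (y axis) of the 55 tested members (grey lines join the same gene) in RIP-OVAhi, OCS/LPS and Rag cells (x axis), with medians of the members in red (4.95, 5.61 and 2.31) and of all tested genes in blue. Coloured lines show that Cdc25c and Dlgap5 return to 0 in Rag cells, that Racgap1 does not, and that Pttg1, on the probe set used, is at 0 throughout.

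By group means, 50 of the 55 members had the order OCS/LPS, RIP-OVAhi, Rag, naive from high to low, an order that 15.2% of all tested genes had. Cdc25c, Pttg1 and Kif23 had Rag below naive cells by at most 0.09, less than the SE of each difference. Racgap1 had Rag above RIP-OVAhi cells by 0.03, and Smc4 had the order RIP-OVAhi, Rag, OCS/LPS, naive. For most members the OCS/LPS and RIP-OVAhi neighbours in that order were not separated by the test. The steps on either side of Rag cells were larger, with medians of 2.47 (RIP-OVAhi minus Rag) and 2.31 (Rag minus naive). Both of these rest on the single Rag array.

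Further probe sets for the same genes gave the same picture in most cases. The genes had 133 probe sets in all, and 46 of those not used above passed the filter, for 34 genes. Of these, 45 were higher in RIP-OVAhi than in naive cells, 41 of them by at least 2-fold, and 43 were lower in RIP-OVAhi than in OCS/LPS cells. The other Kif23 probe set that passed read 5.61 and 5.77 in RIP-OVAhi cells, 6.69 and 7.46 in OCS/LPS cells, 4.46 in Rag cells, and 4.53 and 4.91 in naive cells. Unlike the probe set described above, it separated RIP-OVAhi from OCS/LPS cells, by -1.38. The other Smc4 probe sets differed between RIP-OVAhi and naive cells by 0.97 and 1.14.

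Genes of the same processes outside the list moved to different extents. They had to pass the same filter, so those near background on both naive arrays were tested only through the divided cells. The counts of these further lists against naive cells are thus a description. Among 52 other mitotic genes tested, 48 were called higher in RIP-OVAhi than in naive cells (median 2.88), 49 in OCS/LPS than in naive cells (median 3.39) and 15 in Rag than in naive cells (median 1.03). As given above, 18.1%, 20.5% and 2.15% of all tested genes were called higher in these comparisons. Of the 3 with the highest mean, the chromatin protein Hmgb2 differed from naive cells by 2.14 in RIP-OVAhi cells, by 2.48 in OCS/LPS cells and by 1.56 in Rag cells. The CDK subunit Cks1b differed by 2.98 in RIP-OVAhi cells and 3.33 in OCS/LPS cells, which were called, and by 1.33 in Rag cells, which was not. For the checkpoint protein Bub3 the differences were 0.47 in RIP-OVAhi cells and 0.72 in OCS/LPS cells, both called, and 0.13 in Rag cells, not called. Between RIP-OVAhi and OCS/LPS cells all 52 estimates were below 0 (median -0.61, against -0.05 over all tested genes). Ska3, Kif18b and Psrc1 were called lower, with differences of -1.15, -1.21 and -1.05. In this comparison 1.3% of all tested genes were called lower and 1.61% higher.

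Lists of further subunits had smaller medians. Of 15 further centromere genes, 8 were called higher in RIP-OVAhi than in naive cells (median 1.13), 10 in OCS/LPS than in naive cells (median 1.32) and 0 in Rag cells (median 0.16; 1 at an unadjusted p under 0.05), against 18.1%, 20.5% and 2.15% of all tested genes. Among the 3 with the highest mean, Cenpl differed from naive cells by 2.39 in RIP-OVAhi and 2.99 in OCS/LPS cells, Cenpc1 by 0.50 and 0.92, and Cenpq by -0.15 and 0.05. Of the 15 APC/C genes, 4 were called higher in RIP-OVAhi (median 0.36) and 7 in OCS/LPS than in naive cells (median 0.42), where 18.1% and 20.5% of all tested genes were. In Rag minus naive the limma model called 0 of them, with a median of -0.06 and 2 at an unadjusted p under 0.05. The gene with the highest mean, Anapc5, differed from naive cells by 0.04 in RIP-OVAhi cells, by 0.25 in OCS/LPS cells and by 0.02 in Rag cells. Anapc4 differed by 0.44 and 0.53 and Anapc16 by 0.55 and 0.63 in RIP-OVAhi and OCS/LPS cells, of which Anapc4 in RIP-OVAhi cells was not called (adjusted p = 0.0514).

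Of the 14 tested genes of cohesin and condensin II, 4 were called higher in RIP-OVAhi than in naive cells (median 0.39), where 18.1% of all tested genes were. In OCS/LPS cells 7 were called higher (20.5% of all tested genes) and 1, the cohesin loader Nipbl, lower (-0.71), with a median of 0.56. In Rag cells 2 were called higher (2.15% of all tested genes), with a median of 0.11. Rad21, the cohesin subunit cut by separase, differed from naive cells by 0.40 in RIP-OVAhi, which was not called, and by 0.89 in OCS/LPS cells, which was. The cohesin release factor Wapl and the cohesin subunit Stag2 differed by -0.34 and 0.37 in RIP-OVAhi cells, neither of which was called. Of 15 tested MuvB, DREAM and E2F factors, which control the mitotic and S phase genes, 8 were called higher in RIP-OVAhi (median 0.64), 10 in OCS/LPS (median 0.82) and 2 in Rag than in naive cells (median 0.24), against the same shares of all tested genes. The 3 with the highest mean were Rbbp4, Rbl1 and Tfdp1, which differed from naive cells by 0.35, 0.64 and 1.62 in RIP-OVAhi cells and by 0.38, 0.82 and 2.03 in OCS/LPS cells. Rbbp4 was not called in either.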

How the data were processed

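Expression had been measured on 7 Affymetrix mouse arrays, from 100 ng of total RNA per array and a 2-cycle labelling kit per the labels' protocols. The values used are log2 values of 45101 probe sets that the authors deposited, computed with GCRMA per the submitters' processing notes, in a version not given in the sources used here. Platform annotation gave a single symbol for 34958 probe sets, several for 932 and no symbol for 9211, and Entrez identifiers tied 34754 of them to RefSeq (GRCm38.p6). A gene was read through the single-symbol probe set whose mean over the arrays was highest. Tests covered 8203 genes, those reaching log2 5 in 2 or more arrays. A single limma 3.58.1 model (lmFit, eBayes; R 4.3.3) with a mean per group took in all 7 arrays, leaving 3 residual degrees of freedom beside 2.93 from the prior (prior SD 0.156). Two-sided p-values were adjusted by Benjamini-Hochberg over the 8203 genes. Arrays have no read depth, and their number limits the precision.

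The members and lists were chosen with earlier results of these data known. Array values were given for members called between RIP-OVAhi and OCS/LPS, for the highest member of each role group, for members on the array that failed the filter, and for Cdk1, Cdc20, Plk1, Aurkb, Bub1, Foxm1 and Mybl2. Other members are given by their differences, or were chosen after their values were seen. Other lists were described by counts, medians and their 3 highest tested genes. Promoter letters were counted in RefSeq windows with Python 3.11.15. The procedure was tested on simulated data. Alternatives covered the filter, the probe set rule, the scaling, the variance model, the arrays in the fit, the array number as a block, and each array left out.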

Additional observations from a re-analysis of the deposited data

Results flagged for a closer look

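A second Mybl2 probe set, not used in the comparisons because its mean was lower, carried a signal above the naive cells that the tested data lack. It read log2 4.26 and 4.23 in RIP-OVAhi cells, 5.86 and 6.48 in OCS/LPS cells, 2.61 in Rag cells, and 2.62 and 2.30 in naive cells. The RIP-OVAhi minus naive difference was 1.79 and the OCS/LPS minus naive difference was 3.71 on the log2 scale. It was above background on the OCS/LPS arrays and near background on the others. These differences were not tested. The Mybl2 probe set described above differed between OCS/LPS and naive cells by 1.05 and stayed near background.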

How the results depend on the processing

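Between RIP-OVAhi and naive cells and between OCS/LPS and naive cells, the members called higher kept to 50 to 54 and 52 to 53 without each array in turn. With each array left out, the median differences were 4.67 to 5.24 and 5.42 to 6.02 in these comparisons, 14 to 43 members were called in Rag minus naive, 24 to 51 in RIP-OVAhi minus Rag, 34 to 53 in OCS/LPS minus Rag, and 0 to 5 were called lower in RIP-OVAhi minus OCS/LPS. With the mean of all probe sets of a gene the medians were 3.33 (RIP-OVAhi minus naive), 4.08 (OCS/LPS minus naive), 1.39 (Rag minus naive), 2.08 (RIP-OVAhi minus Rag) and 2.74 (OCS/LPS minus Rag), as probe sets near background enter the mean. With no filter on low values, and so more genes tested, 15 members were called in Rag minus naive and 29 in RIP-OVAhi minus Rag. With only the groups compared in the fit, 0 members were called in Rag minus naive, in RIP-OVAhi minus Rag and in OCS/LPS minus Rag, where 1 residual degree of freedom is left, and 5 were called lower in RIP-OVAhi minus OCS/LPS. The Cdc25c call between RIP-OVAhi and OCS/LPS cells was lost with the mean of probe sets (adjusted p = 0.0539), a trended and robust prior (adjusted p = 0.0558), no filter (adjusted p = 0.185), only the groups compared, and either naive array left out (adjusted p = 0.0594 in each of these); the cause was not tested.

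The labels do not say what a replicate number marks, and same-numbered arrays deviated together with r = 0.13 to 0.35 over genes. With the replicate number as a block, 53 members were called higher in RIP-OVAhi and in OCS/LPS minus naive, 38 in Rag minus naive, 49 in RIP-OVAhi minus Rag, 51 in OCS/LPS minus Rag, and 3 lower in RIP-OVAhi minus OCS/LPS.

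Signs turned only for small differences that were not called; the cause was not tested. Pttg1 ranged, with each array left out, from -0.079 to 0.083 in RIP-OVAhi minus naive, -0.22 to 0.23 in OCS/LPS minus naive, -0.14 to 0.020 in Rag minus naive, -0.23 to 0.22 in RIP-OVAhi minus OCS/LPS and -0.16 to 0.29 in OCS/LPS minus Rag. With the mean of probe sets Pttg1 gave 0.13 in Rag minus naive, -0.11 in RIP-OVAhi minus Rag and -0.062 in OCS/LPS minus Rag, and with arrays centred on their median 0.0049 in Rag minus naive. Smc4 ranged from -0.072 to 0.67 in OCS/LPS minus naive and from -0.013 to 0.52 in RIP-OVAhi minus Rag, and gave 0.021 in OCS/LPS minus Rag with the block. Kif23 ranged from -0.17 to 0.15 in Rag minus naive and from -0.39 to 0.056 in RIP-OVAhi minus OCS/LPS, and gave 0.057 (centred) and 0.13 (block) in Rag minus naive. In Rag minus naive, Dlgap5 ranged from -0.12 to 0.28 and Cdc25c gave 0.072 with the block. Racgap1 ranged from -0.065 to 0 in RIP-OVAhi minus Rag and gave 0.26 with the mean of probe sets. Genes near background limit what the arrays can show in naive and Rag cells.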
